A study of Oryza sativa with 3 samples.

Results

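Small RNAs of rice embryos were compared between 24 and 12 h after imbibition (HAI), the later interval of early germination. The comparison covered every named mature miRNA in the deposited tables of known and predicted miRNAs. Each mature sequence was counted at its first listing, which gave 289 miRNAs, 59 known and 230 predicted (named OsmiR), in 2 of the 3 libraries of the series. The 24 HAI and 12 HAI embryos, and those of dry seeds at 0 HAI that serve here as a starting point, came from de-hulled Nipponbare seeds, which were placed in distilled water at 30 °C in darkness and dissected by hand. Each library was made from RNA pooled over several plates, so there is 1 library per time point and no replicate. No difference below was checked across replicate libraries. By stem-loop RT-PCR in biological replicates, the study found patterns that matched its sequencing for most, but not all, of the miRNAs it selected. Those measurements are not part of the values below. The tables hold small RNAs alone, so embryo identity was not checked against marker transcripts.

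Plant miRNAs are cut from hairpin precursors by Dicer-like (DCL) enzymes. The strand kept in an ARGONAUTE protein can guide cleavage or repression of complementary transcripts. The study describes 24-nt miRNAs, which are 189 of the 289 here, as acting in DNA methylation or histone modification. Many conserved families act on transcription factors that time the change from embryo to seedling growth, and a few act on the miRNA pathway itself or on nutrient transport. A seed first takes up water and resumes metabolism, and its embryo later begins to grow.

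The sequences on which the comparison turns are given here as deposited, 5′ to 3′, with T for U and with bases 2 to 8, the seed, in capitals. The first set holds known miRNAs with more TPM at 24 HAI and the relatives they are set against.
osa-miR169ijkmq: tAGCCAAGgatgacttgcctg
osa-miR169c: gGCAAGTCtgtccttggctac
osa-miR396a: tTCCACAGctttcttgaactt
osa-miR396b: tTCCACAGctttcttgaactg
osa-miR156l: gCTCACTTctctttctgtcagc
osa-miR156abcei: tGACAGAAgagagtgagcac
osa-miR529a: aGAAGAGAgagagtacagcct
osa-miR393a: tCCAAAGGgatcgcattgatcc
osa-miR393b: tCCAAAGGgatcgcattgatct
osa-miR395m: tGAAGTGTttgggggaactc
The second set holds predicted miRNAs with more TPM at 24 HAI.
OsmiR-74: tGGCGATGagagctcgcatctgg
OsmiR-232: gGTTCCTGtcccaagactgag
OsmiR-111: tCATGCGAtccttttggaggc
OsmiR-198: tCCCAAAAtgaaaaaatctagtac
The third set holds the sequences with less TPM at 24 HAI, with OsmiR-51 as a relative of OsmiR-9.
OsmiR-9: aGAATGACttacattgtgaaact
OsmiR-51: aGAATGACttacatcgtgaaacgg
osa-miR531c: cTCGCCGGggctgcgtgccgcc
OsmiR-225: gAGTGATGaagaacaattttt
OsmiR-206: gGGCCAATgattatatagaaa
OsmiR-159: aGGCTGGCgtggcaaaacaatact
Among the 29 miRNAs that met the rule given below, there were 28 different seeds, and the shared seed belonged to osa-miR393a and osa-miR393b.

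The miRNAs had 590212 reads at 24 HAI and 634097 at 12 HAI, among 17359816 and 22332607 genome-mapped reads of these libraries. TPM here is reads per 1000000 genome-mapped reads, so 1 read was 0.0576 TPM at 24 HAI and 0.0448 TPM at 12 HAI. The limit for a miRNA with no read was set at 3 reads, which is 0.173 TPM at 24 HAI and 0.134 TPM at 12 HAI. Ratios are TPM at 24 HAI over TPM at 12 HAI with exact conditional 95% limits. The reads were amplified by PCR with no molecular identifiers described, so the limits, intervals and floors cover counting error only. In a whole embryo, fewer cells with a miRNA and less of it per cell cannot be told apart.

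The 289 listed miRNAs made up 3.40% of the mapped reads at 24 HAI (Wilson 95% interval 3.39–3.41%) and 2.84% at 12 HAI (2.83–2.85%), a ratio of 1.20 (1.19–1.20). These shares cover the listed sequences alone, and the study's own totals of known miRNA reads were larger in each library. The dry embryo had 1.48%, so the share gained 1.35 percentage points in the first 12 h and 0.561 in the next. Known miRNAs had a ratio of 1.20 (1.20–1.21), and the OsmiR had a ratio of 1.07 (1.06–1.09). The net gain was 5605 TPM, made of gains of 6107 TPM in 184 miRNAs with the other 105 losing TPM. osa-miR168a alone made up 40.8% of the net gain, osa-miR159b 22.4%, osa-miR166l 9.55% and osa-miR159f 8.75%. Without osa-miR168a the ratio of the summed miRNAs was 1.13 (1.13–1.14). Because of the larger total, a miRNA with an unchanged share of the miRNA reads has a ratio of 1.20 in TPM, and scaling to the summed miRNA reads lowers every log2 ratio by 0.26.

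A miRNA was called higher or lower when its ratio was at least 2, or at most 0.5, with limits that leave out 1. By this rule 24 miRNAs (8.30% of 289) were called higher at 24 HAI and 5 (1.73%) lower, and 120 (41.5%) had both limits inside 2-fold. The other 140 were unresolved at this depth. With the summed miRNA reads as denominator, 18 (6.23%) were called higher and 11 (3.81%) lower and 120 (41.5%) lay inside 2-fold. The 18 were all among the 24 called higher in TPM, and the 11 included the 5 called lower. Both follow from a denominator that lowers every ratio. The counts were 21 higher (7.27%) and 8 lower (2.77%) without the 5 most abundant miRNAs in the denominator, the same with the TMM factors of edgeR, and 23 higher (7.96%) and 8 lower (2.77%) with the size factors of DESeq2. Across all miRNAs with reads in both libraries the median ratio was 1.11 in TPM and 0.931 in the share of the miRNA reads. The side of 1 on which a sequence fell moved with the denominator: 182 were above 1 and 105 below in TPM, whereas 126 were above and 161 below when scaled to the summed miRNA reads. Limits above 1 were found for 65 miRNAs and limits below 1 for 30 in TPM, against 40 and 62 by summed miRNA reads.

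**Figure D1:**
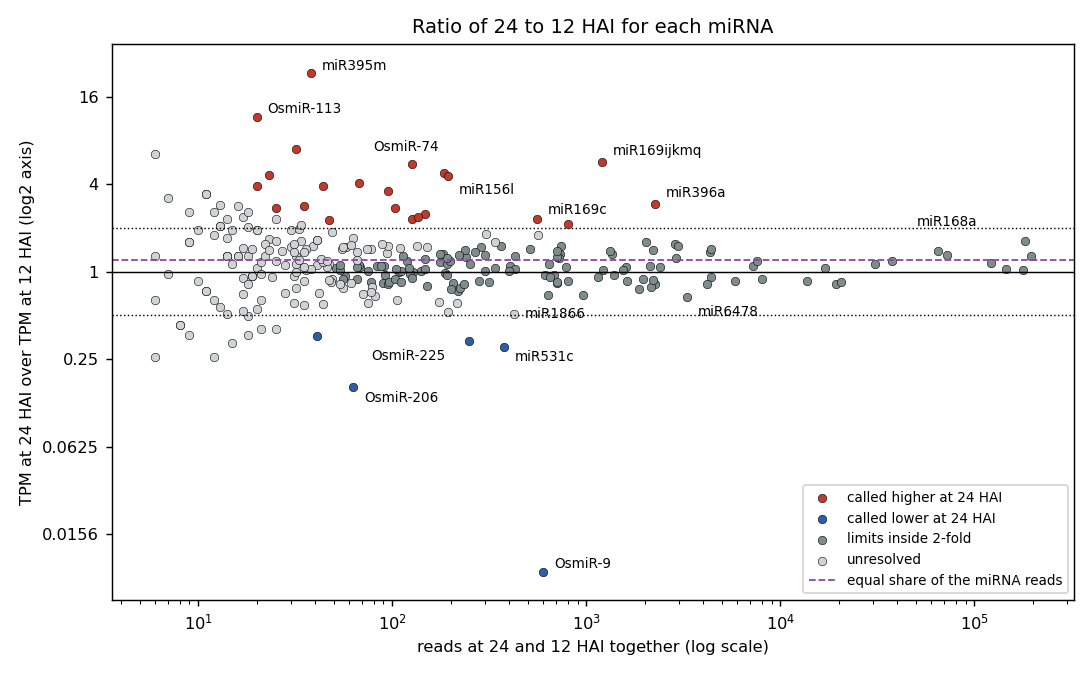
Ratio of TPM at 24 HAI to TPM at 12 HAI (vertical, log2 axis) against the reads of each miRNA in the libraries at 24 and 12 HAI together (horizontal, log axis). Each point is 1 of the 287 miRNAs with reads in both libraries; the solid line is a ratio of 1, dotted lines are 2-fold, and the dashed line at 1.20 is an equal share of the miRNA reads. Red points, called higher, lie above 2 at no more than 2258 reads, and OsmiR-9 lies far below the rest at 0.00862.

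Depth limited the comparison for most of the OsmiR. At least 100 reads over both libraries were counted for 127 miRNAs, of which 11 were called higher, 3 lower and 102 had limits inside 2-fold, with a median ratio of 1.08. Their middle 50% lay between 0.870 and 1.37. Of the 24 miRNAs called higher, 13 had under 100 reads and 2, OsmiR-20 and OsmiR-52, had under 20.

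The NF-YA regulators of family miR169 had the largest ratio among families with over 100 reads. NF-YA proteins are the DNA-binding subunits of the CCAAT-binding factor, and miR169 is known to target their transcripts. osa-miR169ijkmq had 985 reads (56.7 TPM) at 24 HAI and 223 reads (9.99 TPM) at 12 HAI, after 120 reads (6.25 TPM) at 0 HAI. Its ratio was 5.68 (4.91–6.60) in TPM and 4.75 by summed miRNA reads, so most of its increase over the dry embryo fell in the later interval. The same sequence is listed in 5 precursors, all exonic: chromosome 8 plus strand 26803159–26803248, 26807359–26807462 and 26817498–26817587, and chromosome 9 plus strand 19788871–19788977 and 19792143–19792280. Reads cannot be divided among these precursors.

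osa-miR169c, listed on the 3p arm of its precursor on chromosome 4 (minus strand, 30712347–30712438, exon), had 355 reads (20.4 TPM) at 24 HAI and 199 reads (8.91 TPM) at 12 HAI, with 6 reads at 0 HAI. Its ratio was 2.29 (1.92–2.74) in TPM and 1.92 by summed miRNA reads, where it was no longer called. Its increase over 12 HAI was smaller than that of osa-miR169ijkmq, with a ratio of the ratios of 2.48 (1.96–3.12), although it lay far more above the dry embryo. The sequences come from opposite arms and differ at 17 of 21 positions, so their targets cannot be assumed to be the same.

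The GRF regulators of family miR396, which act on growth-regulating factors that promote cell proliferation, diverged. osa-miR396a (chromosome 2, minus strand, 34287881–34288003, exon) had 1564 reads (90.1 TPM) at 24 HAI and 694 reads (31.1 TPM) at 12 HAI, with 391 reads (20.4 TPM) at 0 HAI. osa-miR396b (chromosome 6, plus strand, 3669659–3669756, intergenic) had 645 reads (37.2 TPM) at 24 HAI and 966 reads (43.3 TPM) at 12 HAI, with 717 reads (37.3 TPM) at 0 HAI. The more abundant member was thus miR396b at 0 and 12 HAI and miR396a at 24 HAI. The ratios were 2.90 (2.65–3.17) for miR396a and 0.859 (0.776–0.950) for miR396b, and the ratio of these ratios, which does not depend on the denominator, was 3.38 (2.95–3.87). The sequences share their seed and differ by T21G alone, with positions counted from the 5′ end of miR396a. The study allowed mismatches when it matched reads to known miRNAs. How reads were divided between sequences this close was not checked, and the divergence rests on the deposited counts.

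The SPL regulators miR156, miR529 and miR535 are known to act on SQUAMOSA promoter-binding-like factors, which promote the change to later phases of growth. osa-miR156abcei had 57524 reads (3314 TPM) at 24 HAI and 64415 reads (2884 TPM) at 12 HAI. osa-miR156dj had 65482 reads (3772 TPM) at 24 HAI and 80489 reads (3604 TPM) at 12 HAI. Their ratios of 1.15 (1.14–1.16) and 1.05 (1.04–1.06) were above 1 in TPM and below 1 by summed miRNA reads, at 0.959 and 0.874, and both abundant forms lay inside 2-fold. osa-miR535 had 8115 reads (467 TPM) at 24 HAI and 12305 reads (551 TPM) at 12 HAI, a ratio of 0.848 (0.825–0.873).

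The other listed sequences of these families were called higher. osa-miR156l had 151 reads (8.70 TPM) at 24 HAI and 43 reads (1.93 TPM) at 12 HAI, with 3 reads at 0 HAI, a ratio of 4.52 (3.20–6.50). It is listed on the 3p arm (chromosome 5, plus strand, 5230619–5230756, intergenic), opposite to the 5p sequences above, and its ratio was 3.93 times that of osa-miR156abcei (2.79–5.66) and 4.32 times that of osa-miR156dj (3.06–6.21). Whether a 3p sequence of this family acts on SPL transcripts is not given by the tables. osa-miR529a (chromosome 2, plus strand, 16227807–16227903, intergenic) had 503 reads (29.0 TPM) at 24 HAI and 302 reads (13.5 TPM) at 12 HAI, a ratio of 2.14 (1.85–2.48) that was 1.79 by summed miRNA reads and then not called.

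Among the auxin-related families, miR393 targets the TIR1/AFB auxin receptors, miR160 and miR167 target auxin response factors, and miR390 starts the TAS3 small RNAs that act on further response factors. Their 7 sequences moved in different directions, with 2 called higher and none lower, beside 8.30% and 1.73% of all 289. Another 4 lay inside 2-fold. osa-miR393a had 70 reads (4.03 TPM) at 24 HAI and 33 reads (1.48 TPM) at 12 HAI, a ratio of 2.73 (1.78–4.26). osa-miR393b had 70 reads (4.03 TPM) at 24 HAI and 25 reads (1.12 TPM) at 12 HAI, a ratio of 3.60 (2.25–5.94). The pair differs by T22C alone, counted from the 5′ end of miR393b. Its ratios did not differ beyond counting error, with a ratio of the ratios of 1.32 (0.682–2.57). As for miR396, how reads were divided between sequences this close was not checked. The family as a whole was 3.11 times as high at 24 HAI (2.27–4.29) with 140 reads at 24 HAI against 58 at 12 HAI, and the dry embryo had 31.

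osa-miR160e had 221 reads (12.7 TPM) at 24 HAI and 413 reads (18.5 TPM) at 12 HAI, with 185 reads (9.63 TPM) at 0 HAI, and its ratio was 0.688 (0.582–0.813). osa-miR160ab, listed on the 3p arm, had 69 reads (3.97 TPM) at 24 HAI and 146 reads (6.54 TPM) at 12 HAI, with 2 reads at 0 HAI, and its ratio was 0.608 (0.450–0.815). The 2 miR160 sequences were the only auxin-related ones with ratios below 0.7, and neither passed 2-fold. They differ at 19 positions, so their targets cannot be assumed to be the same. osa-miR167fghj (ratio 0.825, 0.802–0.849) and osa-miR167abc (0.862, 0.818–0.909) were also lower per mapped read. osa-miR390 had 18051 reads (1040 TPM) at 24 HAI and 19755 reads (885 TPM) at 12 HAI, a ratio of 1.18 (1.15–1.20) and 0.982 by summed miRNA reads.

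The GAMYB regulators of family miR159 and the TCP regulator miR319 are close in sequence and were the bulk of the miRNA pool together with miR156 and miR168. osa-miR159b had 97504 reads (5617 TPM) at 24 HAI and 97416 reads (4362 TPM) at 12 HAI, a ratio of 1.29 (1.28–1.30). osa-miR159f had a ratio of 1.31 (1.29–1.33), which did not differ from that of miR159b beyond counting error (ratio of the ratios 1.01, 0.997–1.03). osa-miR319b, the most abundant miRNA at 12 HAI, had 78780 reads (4538 TPM) at 24 HAI and 99260 reads (4445 TPM) at 12 HAI, a ratio of 1.02 (1.01–1.03), and ranked 3 at 24 HAI.

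The feedback regulators of the miRNA pathway differed from each other. osa-miR168a, which targets AGO1 (chromosome 2, minus strand, 1553162–1553230, exon), had 102284 reads (5892 TPM) at 24 HAI and 80512 reads (3605 TPM) at 12 HAI, with 25313 reads (1318 TPM) at 0 HAI. Its ratio was 1.63 (1.62–1.65) and 1.36 by summed miRNA reads, and it ranked 1 at 24 HAI with 17.3% of the miRNA reads, against rank 3 at 12 HAI with 12.7%. osa-miR162b, which targets DCL1, had 802 reads (46.2 TPM) at 24 HAI and 1154 reads (51.7 TPM) at 12 HAI, a ratio of 0.894 (0.816–0.979). The 10 most abundant miRNAs were the same at 24 and 12 HAI.

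The HD-ZIP III regulators of family miR166 did not pass 2-fold. osa-miR166l had 33537 reads (1932 TPM) at 24 HAI and 31191 reads (1397 TPM) at 12 HAI, a ratio of 1.38 (1.36–1.41). osa-miR166j had a ratio of 1.44 (1.21–1.72), osa-miR166i 1.07 (1.03–1.10) and osa-miR166e 1.03 (0.916–1.15), and the ratio of miR166l was 1.30 times that of miR166i (1.25–1.34). Within the GRAS regulators of family miR171, osa-miR171i had a ratio of 1.43 (1.35–1.52) and osa-miR171bcde of 0.926 (0.789–1.09), a ratio of the ratios of 1.55 (1.30–1.83). osa-miR171h had a ratio of 1.06 (0.853–1.32). The NAC regulators had few reads, with 47 at 24 HAI and 58 at 12 HAI for osa-miR164abf (ratio 1.04, 0.694–1.56) and 5 and 4 for osa-miR164c.

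Among nutrient-related miRNAs, osa-miR395m, whose family acts on sulfate assimilation and transport, had 36 reads (2.07 TPM) at 24 HAI and 2 reads (0.0896 TPM) at 12 HAI, with no read at 0 HAI. Its ratio was 23.2, with limits of 5.96–199 that show how little its 12 HAI level is known. osa-miR528 had 327 reads (18.8 TPM) at 24 HAI and 234 reads (10.5 TPM) at 12 HAI, a ratio of 1.80 (1.52–2.14). osa-miR827, which acts on phosphate transport, had a ratio of 1.13 (0.877–1.46). The transposon-borne osa-miR820abc, a regulator of DNA methylation in rice, had 3629 reads (209 TPM) at 24 HAI and 3968 reads (178 TPM) at 12 HAI, a ratio of 1.18 (1.12–1.23).

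Of the 34 sequences in these role lists, 8 were called higher, none lower and 23 lay inside 2-fold, with a median ratio of 1.18, against 24 higher and 5 lower of all 289 and a median of 1.11. By summed miRNA reads 6 of the 34 were called higher and none lower. Families miR165, miR172, miR397, miR398, miR399, miR403, miR408 and miR444 had no sequence among those analysed here. In the deposited classes, 7 of the 28 sequences of class I were called higher and none lower, beside 8.30% and 1.73% of all 289, with a ratio of summed TPM of 1.23, while the ratio was 1.02 for class II and 1.02 for class III.

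Of the 42 known families, 5 (11.9%) were called higher (miR169, miR393, miR395, miR529 and miR1861) and 1 (2.38%) lower (miR531), and 32 (76.2%) had limits inside 2-fold. By summed miRNA reads 4 (9.52%) were called higher, without miR529, 2 (4.76%) lower, with miR1866 added, and 30 (71.4%) lay inside 2-fold. osa-miR1861g had 33 reads (1.90 TPM) at 24 HAI and 11 reads (0.493 TPM) at 12 HAI, a ratio of 3.86 (1.90–8.46).

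**Figure D2:**
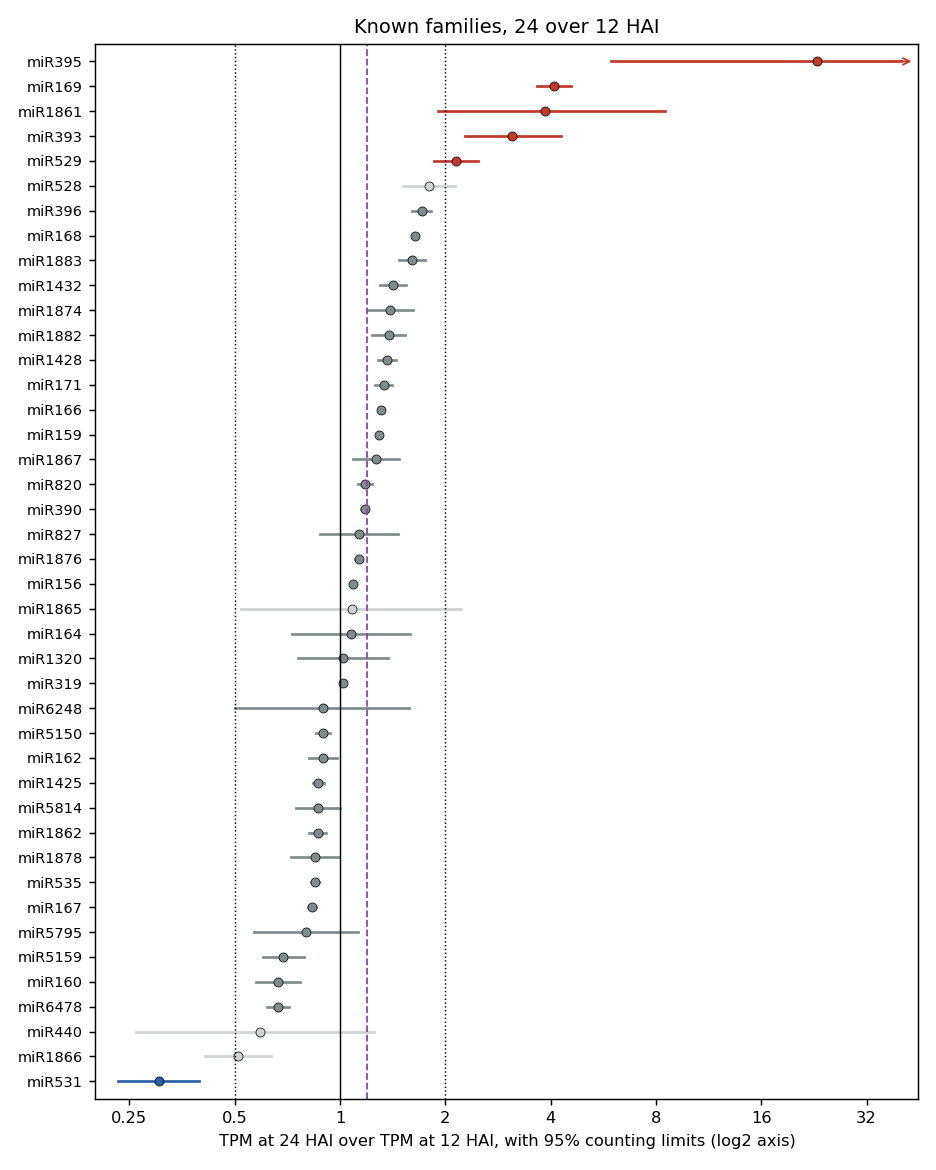
TPM at 24 HAI over TPM at 12 HAI for the 42 known families (log2 axis), from the summed reads of each family, with bars for the exact conditional 95% limits (counting error only). Red is called higher, blue called lower, dark grey inside 2-fold and light grey unresolved; the dashed line at 1.20 is an equal share of the miRNA reads, and the upper limit of miR395 at 199 runs off the axis.

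Among the known miRNAs, osa-miR531c alone was called lower at 24 HAI in TPM. It (chromosome 11, plus strand, 26930692–26930740, intergenic) had 72 reads (4.15 TPM) at 24 HAI and 304 reads (13.6 TPM) at 12 HAI, with 42 reads (2.19 TPM) at 0 HAI. Its ratio was 0.305 (0.232–0.395), which left it above the dry embryo. osa-miR1866, of 24 nt, had 121 reads (6.97 TPM) at 24 HAI and 304 reads (13.6 TPM) at 12 HAI, with 37 reads at 0 HAI, and its ratio of 0.512 (0.411–0.634) lay just short of the rule in TPM and passed it at 0.428 by summed miRNA reads. ptc-miR6478 had 1119 reads (64.5 TPM) at 24 HAI, 2165 reads (96.9 TPM) at 12 HAI and 7441 reads (387 TPM) at 0 HAI, and its ratio of 0.665 (0.618–0.715) followed a larger fall in TPM in the first 12 h.

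Other known miRNAs lay inside 2-fold after early changes of different size. osa-miR1428e, of class III, had 2228 reads at 24 HAI and 2100 reads at 12 HAI, with 21 reads at 0 HAI, and its ratio was 1.36 (1.29–1.45). osa-miR1432, of class I, had also been called higher at 12 HAI than at 0 HAI and had a ratio of 1.41 (1.30–1.54). osa-miR1425 had 5542 reads (319 TPM) at 24 HAI and 8218 reads (368 TPM) at 12 HAI, a ratio of 0.868 (0.838–0.898), and its ratio of 12 to 0 HAI, 1.51 (1.46–1.57), had not been called. Of the 13 known miRNAs of 24 nt, none was called higher or lower in TPM, beside 8.30% and 1.73% of all 289. Inside 2-fold lay 11, from osa-miR1883a at 1.61 (1.47–1.76) to osa-miR5159 at 0.689 (0.601–0.788), beside 41.5% of all. That share depends on depth. At least 100 reads were counted for 12 of the 13, and of all 127 miRNAs at that depth 102 lay inside 2-fold. osa-miR1866 was called lower by summed miRNA reads.

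Among the 230 OsmiR, 15 were called higher and 4 lower, beside 8.30% and 1.73% of all 289. Another 133 were unresolved at this depth. OsmiR-232 (chromosome 6, minus strand, 27238198–27238283, intergenic) had 145 reads (8.35 TPM) at 24 HAI and 39 reads (1.75 TPM) at 12 HAI, a ratio of 4.78 (lower limit 3.34). OsmiR-74 had 103 reads (5.93 TPM) at 24 HAI and 24 reads (1.07 TPM) at 12 HAI, a ratio of 5.52 (3.51–9.01). OsmiR-198 had 51 and 16 reads at 24 and 12 HAI (ratio 4.10, 2.30–7.70), and OsmiR-162 had 27 and 5 reads (6.95, 2.64–23.1). These sequences had at most 8 reads at 0 HAI, so their level was highest at the last time point sampled. OsmiR-28 had 88 and 48 reads (2.36, 1.64–3.43) and OsmiR-160 had 81 and 45 reads (2.32, 1.59–3.41), and neither was called by summed miRNA reads. The others called higher in TPM were OsmiR-111, OsmiR-20, OsmiR-35, OsmiR-37, OsmiR-52, OsmiR-70, OsmiR-113, OsmiR-131 and OsmiR-143, with 8 to 97 reads at 24 HAI. Of these, OsmiR-70 (2.28) and OsmiR-143 (1.90) were also not called by summed miRNA reads.

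OsmiR-9 had the lowest ratio among the 127 miRNAs with at least 100 reads. It lies on chromosome 5 (minus strand, 24784632–24784765, intergenic) and had 4 reads (0.230 TPM) at 24 HAI and 597 reads (26.7 TPM) at 12 HAI, after 364 reads (19.0 TPM) at 0 HAI. Its ratio was 0.00862 (0.00234–0.0222). OsmiR-51 shares its seed and a run of 14 bases but had 38 reads (2.19 TPM) at 24 HAI and 58 reads (2.60 TPM) at 12 HAI, a ratio of 0.843 (0.545–1.29). OsmiR-102, which is complementary to OsmiR-9 over 19 bases, had 2 and 7 reads at 24 and 12 HAI. The 12 miRNAs of 23 nt had a ratio of 0.545 (0.483–0.613), against 1.45 (1.25–1.67) for the 11 without OsmiR-9.

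The other OsmiR called lower had fewer reads. OsmiR-225 (chromosome 3, plus strand, 16788352–16788412, exon) had 2.94 TPM at 24 HAI and 8.87 TPM at 12 HAI, a ratio of 0.331 (0.239–0.453). OsmiR-206 (chromosome 8, plus strand, 3294538–3294618, intron) had 7 reads (0.403 TPM) at 24 HAI and 56 reads (2.51 TPM) at 12 HAI, a ratio of 0.161 (0.0618–0.354). OsmiR-159 had 9 and 32 reads (0.362, 0.152–0.776). The 5 miRNAs called lower were called lower under all 5 denominators. The other 4 give smaller ratios than TPM does, so none of these calls could have been lost. By summed miRNA reads, OsmiR-49, with 56 reads (3.23 TPM) at 24 HAI and 137 reads (6.13 TPM) at 12 HAI, was also called lower at 0.439, as were OsmiR-79, OsmiR-139, OsmiR-208 and OsmiR-214, which had 3 to 6 reads at 24 HAI.

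Some of the OsmiR called higher contain the same run of bases. CCGGGACTAAA, bases 2 to 12 of OsmiR-113, occurs on the listed strand in 23 of the 289 sequences (7.96%), all OsmiR, of which 20 are 24 nt long, and the run was chosen after the values were seen, so its counts are a description. The 4 of them that were called higher are shown because the run sits at a different place in each, with the seed again in capitals.
OsmiR-20: cAACCGGGactaaagatcgatcta
OsmiR-113: aCCGGGACtaaagatcgagctgat
OsmiR-37: aCCAATCCgggactaaagatcgat
OsmiR-143: aTAAACAAccgggactaaagaact
OsmiR-113 had 18 reads (1.04 TPM) at 24 HAI and 2 reads at 12 HAI, a ratio of 11.6 (2.77–103). OsmiR-37 had 18 and 5 reads (4.63, lower limit 1.66) and OsmiR-143 had 30 and 17 (2.27, 1.21–4.39). OsmiR-20 had 8 reads at 24 HAI and 0 at 12 HAI, which gave a lower limit of 2.20 for its ratio. The 4 called higher of 23 stand beside 8.30% of all 289, and none of the other 19 was called lower in TPM, with 3 inside 2-fold and 16 unresolved. By summed miRNA reads 3 of the 23 were called higher, without OsmiR-143, and 1, OsmiR-214, was called lower. The summed reads of all 23 gave a ratio of 1.44 (1.31–1.59).

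The listed precursors of 11 OsmiR overlap those of known miRNAs on the same strand, 10 of them with the OsmiR on the other arm. Of these 11, 5 were called higher and none lower, 2 lay inside 2-fold and 4 were unresolved, beside 24 of all 289 called higher (8.30%). OsmiR-74 occupies bases 1 to 23 of its listed precursor of 152 nt on chromosome 9 (plus strand, 19788848–19788999, exon) and osa-miR169ijkmq occupies bases 24 to 44, so the sequences lie end to end on 1 arm. Their ratios of 5.52 and 5.68 gave a ratio of the ratios of 0.972 (0.602–1.62). OsmiR-52, on the other arm of the chromosome 8 precursor of osa-miR169ijkmq at 26817498–26817587, had 8 reads at 24 HAI and 0 at 12 HAI. It is itself listed with 2 precursors, so its reads cannot be assigned to this hairpin alone. OsmiR-111, on the arm opposite to osa-miR393a (chromosome 1, minus strand, 2309156–2309254, intergenic), had 97 reads (5.59 TPM) at 24 HAI and 50 reads (2.24 TPM) at 12 HAI, a ratio of 2.50 (1.76–3.58), and its ratio was 0.915 times that of osa-miR393a (0.515–1.62).

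Other hairpins had arms that moved apart. OsmiR-198 shares a precursor with osa-miR1862e (chromosome 11, plus strand, 2523243–2523313, intron), which had 481 reads (27.7 TPM) at 24 HAI and 668 reads (29.9 TPM) at 12 HAI, and the ratio of OsmiR-198 was 4.43 times that of osa-miR1862e (2.45–8.41). OsmiR-131, with 15 and 5 reads at 24 and 12 HAI, had a ratio 4.45 times that of osa-miR1425 (1.54–15.7). OsmiR-68, on the arm opposite to osa-miR156abcei, had 1594 reads (91.8 TPM) at 24 HAI and 1355 reads (60.7 TPM) at 12 HAI, a ratio of 1.51 (1.41–1.63) that was 1.32 times that of osa-miR156abcei (1.22–1.42). For the other 8 OsmiR the limits of this ratio of ratios span 1. Since osa-miR156abcei and osa-miR169ijkmq are listed in several precursors, their reads need not come from the hairpin they share with an OsmiR.

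**Figure D3:**
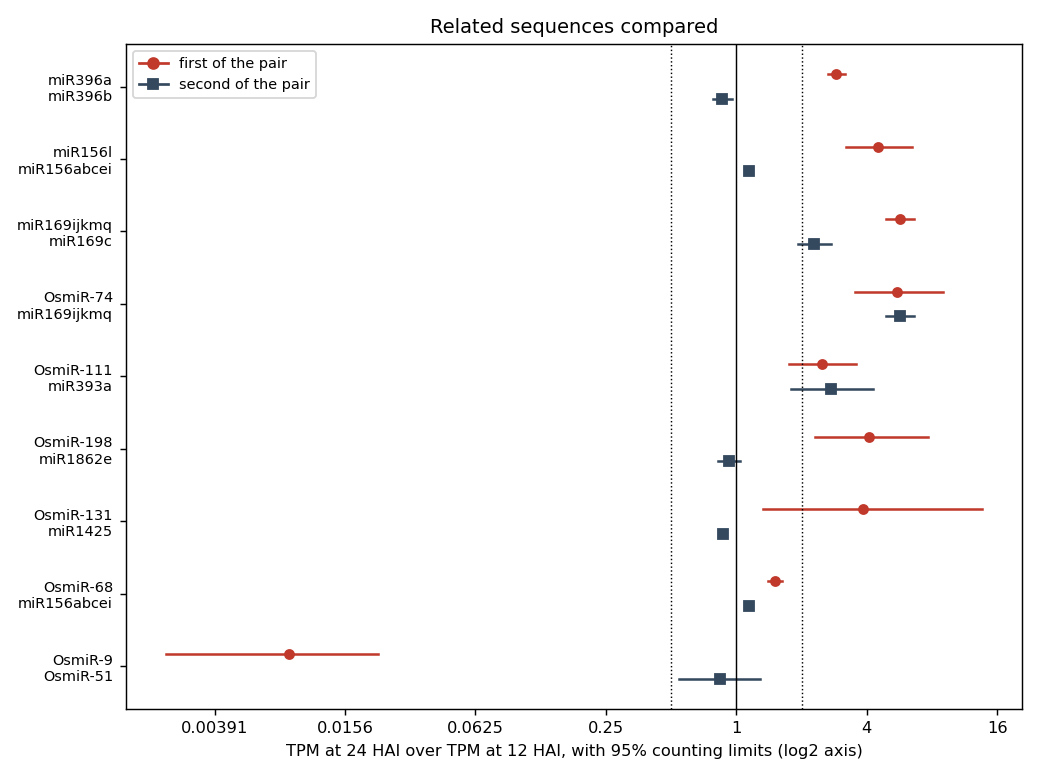
TPM at 24 HAI over TPM at 12 HAI (log2 axis) for 9 pairs of related sequences, with exact conditional 95% limits (counting error only). In each pair the circle is the sequence named first and the square the sequence named second. The members of the OsmiR-74 and miR169ijkmq pair and of the OsmiR-111 and miR393a pair overlap, whereas miR396a (2.90) and miR396b (0.859) are far apart.

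The course over all 3 time points was read from the call of 12 over 0 HAI followed by the call of 24 over 12 HAI, which share the 12 HAI library. In the earlier interval 76 miRNAs (26.3%) were called higher and 2 (0.692%) lower, and 42 (14.5%) lay inside 2-fold, against 24 higher (8.30%) and 5 lower (1.73%) in the later. Of the 76, 7 were called higher again (osa-miR169c, osa-miR156l, OsmiR-232, OsmiR-111, OsmiR-74, OsmiR-160 and OsmiR-198), 37 stayed inside 2-fold, 3 were called lower (osa-miR531c, OsmiR-206 and OsmiR-159) and 29 were unresolved. The 37 inside 2-fold included osa-miR168a, which at 1.63 (1.62–1.65) was still higher at 24 HAI beyond counting error, and osa-miR159b, osa-miR159f, osa-miR166l, osa-miR390 and osa-miR171i. Conversely, 17 of the 24 miRNAs called higher in the later interval had not been called higher in the earlier: osa-miR396a, osa-miR529a and OsmiR-28 had been inside 2-fold, and 14, among them osa-miR169ijkmq, osa-miR393a and osa-miR393b, had been unresolved. OsmiR-9 and OsmiR-225 were inside 2-fold and then called lower.

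By summed miRNA reads fewer miRNAs passed the rule in the earlier interval, 25 higher (8.65%) and 9 lower (3.11%), with 101 (34.9%) inside 2-fold, and 84 were inside 2-fold in both intervals, osa-miR168a and osa-miR159b among them. By this scale 4 were called higher in both intervals (osa-miR156l, OsmiR-232, OsmiR-111 and OsmiR-74), 13 were called higher and then lay inside 2-fold, osa-miR1428e and osa-miR1432 among them, and 3 were called higher and then lower (osa-miR1866, osa-miR531c and OsmiR-49). osa-miR396a and osa-miR169ijkmq were inside 2-fold and then called higher. The 5 most abundant miRNAs moved apart in their share of the miRNA reads. osa-miR168a had 8.88% at 0 HAI, 12.7% at 12 HAI and 17.3% at 24 HAI, while osa-miR319b had 18.4%, 15.7% and 13.3%. In TPM osa-miR319b, osa-miR156dj and osa-miR156abcei were inside 2-fold in both intervals.

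**Figure D4:**
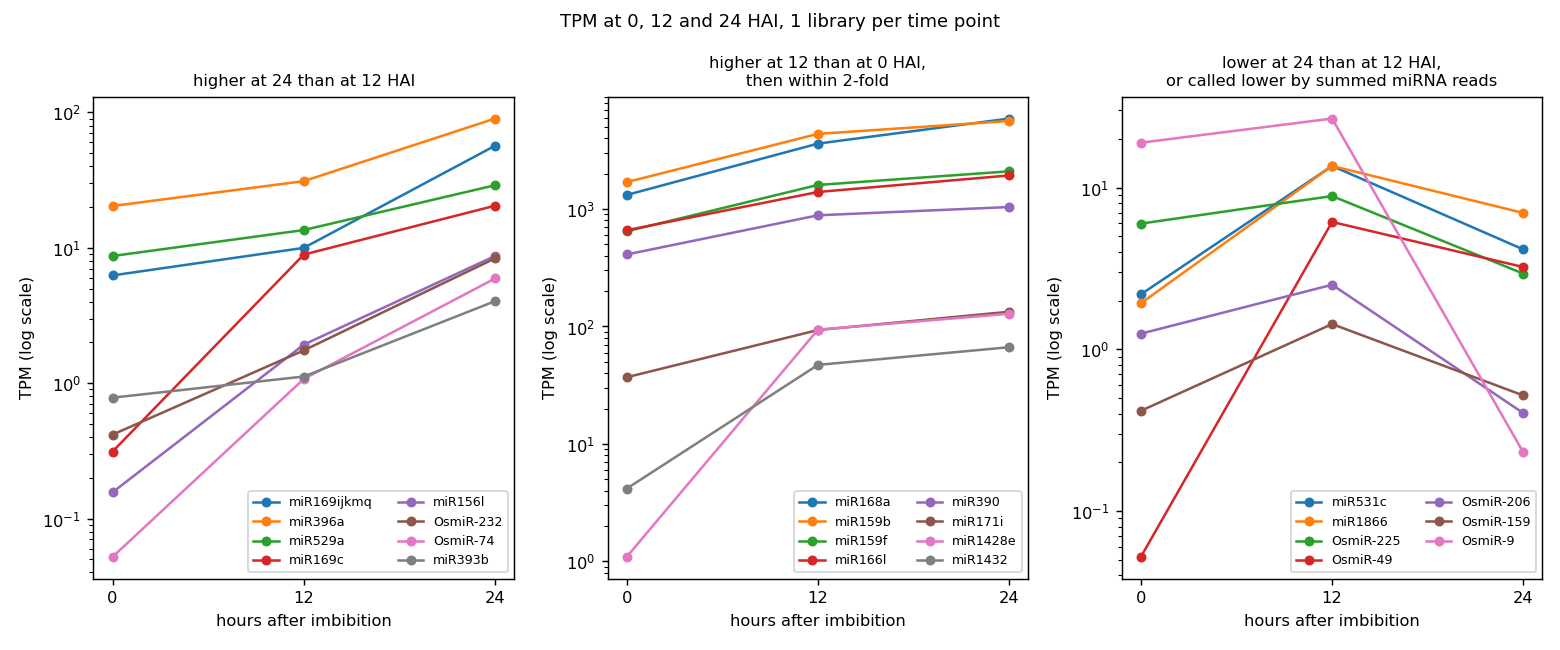
TPM (log scale) at 0, 12 and 24 HAI, 1 library per time point with no error bars, for miRNAs called higher at 24 than at 12 HAI (left), for miRNAs called higher at 12 than at 0 HAI and then inside 2-fold (middle), and for miRNAs called lower at 24 than at 12 HAI in TPM or, for miR1866 and OsmiR-49, by summed miRNA reads (right). miR169ijkmq reached 56.7 TPM at 24 HAI, whereas OsmiR-9 ended at 0.230 TPM.

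By length, the share of the miRNA reads that were 21 nt long was 74.1% at 24 HAI and 72.6% at 12 HAI. The ratio of summed TPM was 1.22 (1.22–1.23) at 21 nt and 1.07 (1.05–1.08) at 24 nt, while at 22 nt its limits were 0.983–1.02. Sequences that start with T had a ratio of 1.21 and those that start with A 1.08 (1.07–1.09). By the place of the first listed precursor, the ratio was 1.25 (1.24–1.26) for intergenic miRNAs, 1.18 (1.18–1.19) for exonic and 1.03 (1.02–1.05) for intronic ones. A few abundant sequences weigh on these sums, and without the 5 most abundant miRNAs the ratio of exonic miRNAs was 1.07. Of the 58 intronic miRNAs, 2 were called higher and 2 lower in TPM, beside 8.30% and 1.73% of all 289. By summed miRNA reads 1 was called higher and 4 lower, beside 6.23% and 3.81%.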

How the data were processed

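Embryos of rice (Oryza sativa, cultivar Nipponbare) were dissected from dry and imbibed seeds. From RNA pooled over several plates, 1 small RNA library was made per time point. Per the study's methods and the labels, the authors checked the reads with FastQC, kept small RNAs of 18–30 nt, mapped them to MSU 7.0 with Bowtie, discarded matches to structural RNAs, matched them to known miRNAs with mismatches allowed, and predicted further miRNAs (OsmiR). The deposited read counts are not normalized. The TPM values deposited by the authors matched, within 0.0001 TPM in all 407 rows, a scaling of each count to 1000000 reads mapped to the genome. Deposited percent, MFE and MFEI columns were not used.

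Each mature sequence was counted at its first listing, without the second copy of the known table and without 1 sequence that has no name. Ratios carry exact conditional 95% limits given the library totals (Python 3.11.15, scipy 1.17.1). With 1 library per time point there was no test across samples; edgeR 4.0.16 and DESeq2 1.42.0 gave scaling factors alone. The limits and calls were tested on simulated counts drawn with counting error alone. That simulation does not cover PCR, library preparation or the spread between embryos. Alternatives were other denominators, folds, read minimums and row counts. The rule for named miRNAs took the role lists, the 10 highest and 10 lowest ratios at 100 reads or more, the 10 most abundant at 24 HAI, the 5 with most reads in each course, those with 3 or fewer reads in 1 library and at least 20 in the other, and family members 2-fold apart; other OsmiR named by their call, run of bases or hairpin were chosen after their values were seen. The members, lists and comparisons were chosen with earlier results of these data known. The sequences shown are the deposited ones, and positions are in MSU 7.0 as deposited.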

Additional observations from a re-analysis of the deposited data

Results flagged for a closer look

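A sequence of 20 nt that carries no name in the predicted table, and so was left out of the comparison, had 62 reads (3.57 TPM) at 24 HAI and 83 reads (3.72 TPM) at 12 HAI, above the 3 reads that a count of 0 allows. Its ratio was 0.961 (0.680–1.35). It had 39 reads at 0 HAI and is listed with 2 precursors.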

How the results depend on the processing

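No paired analysis was possible because each time point has 1 library, and for the same reason no library could be left out and the spread between embryos is unknown. Relative to TPM, the log2 ratios shift by -0.26 with the summed miRNA reads as denominator, by -0.19 with the summed reads without the 5 most abundant miRNAs, by -0.19 with TMM factors and by -0.14 with DESeq2 size factors. Against 5 miRNAs called lower at 24 HAI in TPM, 11 were called by summed miRNA reads and 8 by each of the other denominators. Against 1 family called lower, 2 were called under each of these 4 denominators. Against 7 miRNAs called higher in both intervals, 4 were by summed miRNA reads. Against 37 called higher and then inside 2-fold, there were 13 by summed miRNA reads, 14 without the 5 most abundant, 14 with TMM and 15 with DESeq2, and these counts include osa-miR528, which is not among the 37. The 4 denominators give smaller ratios in both intervals. None of the 84 ratios of named miRNAs that were recomputed reversed a call, and 13 moved to the other side of 1 by summed miRNA reads. The shifts of the denominators are too small to carry a 2-fold ratio across 1, so they could reverse no call.

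The rule for a call set the counts as well. With a fold of 1.5, 11 miRNAs were called lower, 9 families higher and 3 lower, 16 miRNAs higher in both intervals and 7 higher then lower. With a fold of 3, 14 were called higher, 4 higher in both intervals and 1 higher then lower. With the ratio alone, 40 were higher and 15 lower, 17 higher in both intervals and 8 higher then lower. Another 88 were higher and then had a ratio inside 2-fold, whatever its limits. With the limits alone, 65 were higher and 30 lower, and 22 families higher and 13 lower. By that rule 50 miRNAs were higher in both intervals and 28 were higher then lower. Another 75 were higher and then had limits that span 1, whatever their width. At 100 reads or more, 11 were called higher, 3 lower, 3 families higher and 1 miRNA higher then lower. Known miRNAs alone gave 9 higher and 1 lower, and predicted ones alone gave 15 higher.

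The ratio of the miRNA share was 1.16 with every listed row counted, 1.20 for known miRNAs, 1.07 for predicted ones and 1.14 without the 5 most abundant. With every row counted it was 1.20 at 21 nt, 1.04 at 24 nt, 0.928 at 22 nt, 1.05 for a first A, 1.16 for a first T, 1.15 for exonic and 1.18 for intergenic miRNAs. Without the 5 most abundant it was 1.17 at 21 nt, 1.13 for a first T, 1.07 for exonic and 1.21 for intergenic miRNAs. The other 41 of 96 recomputed values stayed close to those reported. Depth left 140 of 289 miRNAs unresolved.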
